A study of Mus musculus with 76 samples.

Results

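This report compares the right ventricular (RV) transcriptome of Western diet (WD) fed female mice at 2 collection ages, 640 d and 530 d. The members are the count columns F31 to F35 (640 d) and F11 to F15 (530 d), 10 of the 76 libraries in the table. All 10 come from female C57Bl/6J mice given WD and a sham field at a dose of 0 cGy, so the groups differ by design in age at collection. No gene was deleted or added in these mice. According to the methods, WD was fed for a limited period of adult life that ended before both collections, so neither age was sampled on the diet. The labels give each library as a separate sample, while F32, F33 and F35 have near-identical counts. P-values measure the spread between these libraries. A normal diet (ND) group of the same sex and ages (9 libraries) entered a diet by age term, and WD males at 750 d and 530 d (10 libraries) had a test of age of their own. ND males entered only where all 39 sham libraries were normalized, filtered or fitted together.

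The right ventricle is a thin muscular chamber that pumps blood to the lungs. Its working muscle cells burn mainly fatty acids and depend on tightly timed calcium release. When such a wall is loaded or ages, its muscle cells are known to switch on a set of genes otherwise used before birth, among them Nppb, which encodes B-type natriuretic peptide, and Acta1, which encodes skeletal α-actin. Many heart genes also follow the circadian clock, in which transcription factors such as BMAL1 drive an output arm (Dbp, Nr1d2, Hlf) that in turn feeds back on them.

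Total counts ranged from 14478933 to 20343009 at 530 d and from 13748594 to 18082064 at 640 d, and 11989 genes had more than 20 counts in every library. RNA integrity (RIN) was 7.22 ± 0.638 at 530 d and 6.82 ± 0.563 at 640 d (SD, n = 5 each), and the groups were chosen with their RIN known to be similar. The 12 ventricular muscle markers summed to between 66500 and 74800 CPM (counts scaled to the library total) at 530 d and between 61600 and 68000 CPM at 640 d. The Y-linked genes Ddx3y, Kdm5d and Uty were at 0 in all 10 libraries.

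Several libraries stood apart before any comparison. Over the genes tested, the chi-square per degree of freedom between F32, F33 and F35 was 1.73 to 2.51, where sampling noise alone gives about 1, against 9.77 to 96.5 for the other 17 pairs of equal age. Atrial transcripts were unevenly spread. Myl7, the atrial light chain, was at 147 CPM in F12, 33.5 CPM in F14, 1010 CPM in F15 and 26.6 CPM in F34, and at or below 2.29 CPM in the other 6 libraries. The 15 atrial markers summed to 264, 878, 289, 427 and 5540 CPM in F11 to F15 and to 221, 206, 212, 369 and 200 CPM in F31 to F35. Ucp1, the brown fat uncoupling protein, was at 24.8 CPM in F12 and at or below 0.0579 CPM elsewhere. F31 had by far the most Myh7 (947 CPM against 107 to 182 CPM in the other 640 d libraries) and Col1a1 (367 CPM against 79.8 to 83.3 CPM). Myh7 encodes the slow myosin heavy chain and Col1a1 fibrillar collagen.

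**Figure D1:**
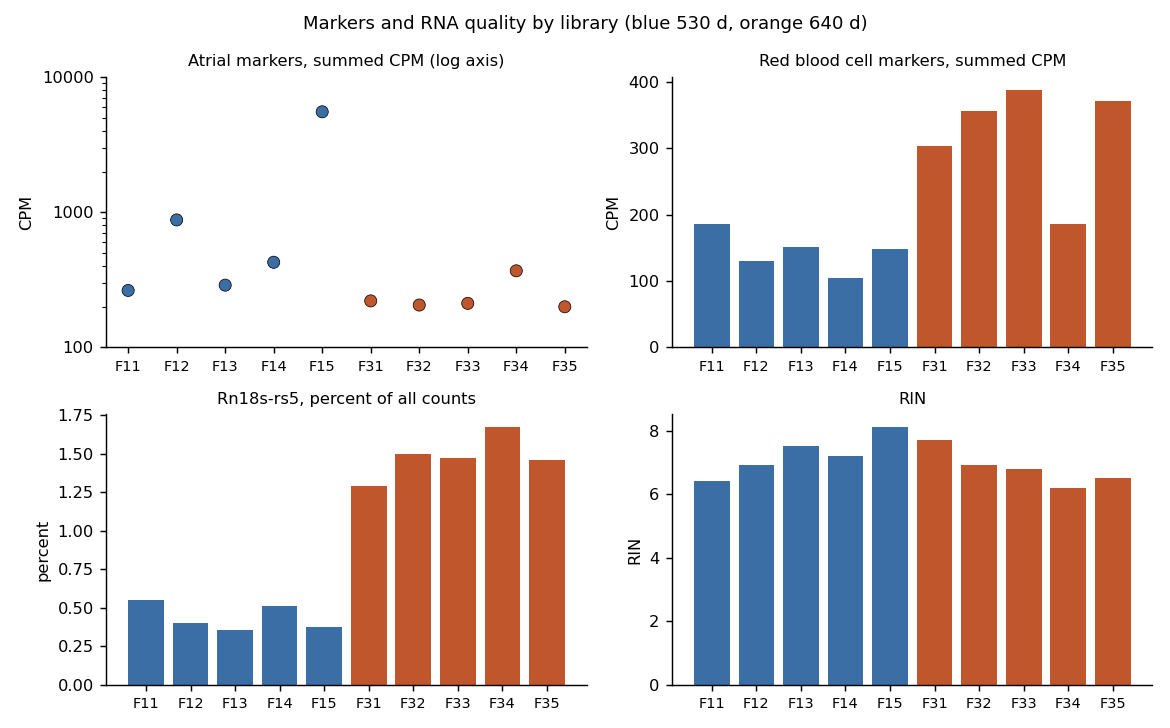
Summed CPM of the atrial markers (log axis) and of the red blood cell markers, the percentage of counts from Rn18s-rs5, and RIN, for each of the 10 libraries (530 d in blue, 640 d in orange). F15 has 5540 CPM of atrial markers, red blood cell markers are above 300 CPM in 4 of the 640 d libraries, and Rn18s-rs5 separates the ages while RIN does not.

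The first principal component, over the 500 most variable genes, held 52.1% of the variance. Its mean score was 6.70 ± 6.26 at 530 d and -6.70 ± 5.08 at 640 d (SD, n = 5 each, exact permutation p = 0.0159). With F32, F33 and F35 summed, the exact permutation p was 0.107, and the smallest p of such a 5 against 3 design is 0.0179. F32, F33 and F35 lay between -10.7 and -9.84, F31 at -2.94 and F34 at 0.338. F11 (-1.97) was the lowest of the 530 d libraries, and it lay below F34 and above the other 640 d libraries. F31 stood alone on the second component (25.1% of the variance) at 14.

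**Figure D2:**
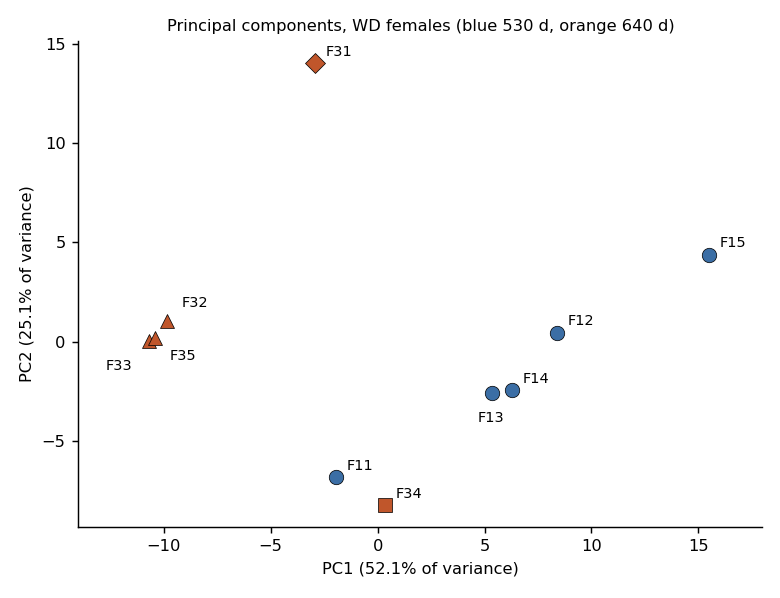
First and second principal components of variance-stabilised counts for the 10 libraries (530 d in blue, 640 d in orange, triangles for F32, F33 and F35). The 3 triangles fall together, F31 lies apart on the second axis at 14, and F34 lies beside F11.

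Across the 10 libraries, 680 genes differed between the ages in edgeR's quasi-likelihood test, 347 higher and 333 lower at 640 d. That is 5.67% of genes tested, 2.89% higher and 2.78% lower. DESeq2 called 1411 of the same 11989 genes. With F32, F33 and F35 summed into 1 column, 2 genes passed, 0.0167% of those tested, both higher at 640 d. None was lower in that fit, where 1573 genes had an unadjusted p under 0.05 and DESeq2 called 103 higher and 86 lower. All 680 kept their direction in the summed fit and had an unadjusted p under 0.05 there. The 2 ages did not overlap for 415 of the 680 genes, and for 6.11% of all genes tested. In what follows, rose and fell refer to the fit of 10 libraries, and the adjusted p of the summed fit stands beside the genes described in most detail. Of the named genes that passed with 10 libraries, 90 did not pass in the summed fit, with adjusted p from 0.106 to 0.329 there (edgeR).

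The count of calls moved with each library. It was 1421 without F11, 182 without F12, 73 without F13, 98 without F14 and 260 without F15. It was 2215 without F31, 27 without F32, 27 without F33, 1217 without F34 and 42 without F35. Leaving out the 4 libraries with atrial transcripts (F12, F14, F15 and F34) left 149 genes, 70 higher and 79 lower, and 108 of the 680 passed there in their direction. That fit has fewer libraries, so a call lost there need not mean a smaller change. It compares F11 and F13 with F31 and the 3 near-identical libraries. With these 3 summed as well, no gene passed in edgeR (784 had an unadjusted p under 0.05), so a gene said below to pass without the libraries with atrial transcripts did so only with the 3 counted separately. F34 was the 640 d library nearest to the 530 d mean for 356 of the 680 genes, and for 3007 of all 11989. Leaving F34 out, as the fit without the libraries with atrial transcripts does, can by itself lower the p of such genes. Their passing there is therefore not given as support.

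**Figure D3:**
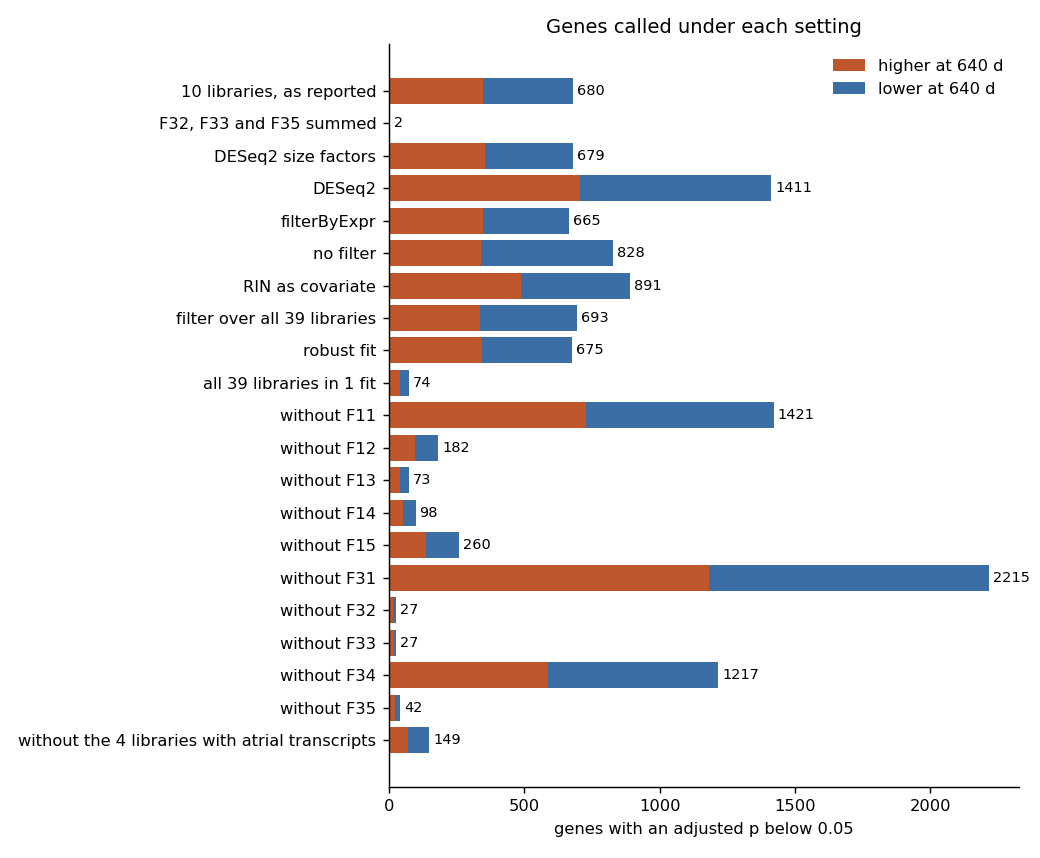
Number of genes with an adjusted p below 0.05 under each setting, split into genes higher (orange) and lower (blue) at 640 d. The 10 libraries give 680 calls, the summed columns give 2, and leaving out F31 gives 2215.

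Of the 2 genes that passed either way, 1 is annotated as ribosomal RNA and the other encodes a mitochondrial enzyme. Rn18s-rs5 (chr17:40157244-40159092, plus strand, GRCm39) is annotated as an 18S ribosomal RNA gene. It stood at 5670, 3840, 3410, 5000 and 3540 CPM in F11 to F15 and at 11600, 16100, 15800, 18000 and 15700 CPM in F31 to F35. Every 640 d library was above every 530 d library, a 3.59-fold difference (log2 fold change 1.85 ± 0.17 SE, edgeR adjusted p = 0.00054, summed 0.0273). Its share of all counts was 0.353% to 0.553% at 530 d and 1.29% to 1.67% at 640 d. Ribosomal RNA lacks the poly-A tail by which these libraries were selected, so its share also describes the libraries.

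Lars2 (chr9:123195952-123291731, plus strand, GRCm39) encodes the mitochondrial leucyl-tRNA synthetase. Its CPM were 378, 287, 260, 354 and 272 at 530 d and 1020, 958, 921, 810 and 911 at 640 d. Again the ages did not overlap, and the rise was 2.98-fold (log2 1.58 ± 0.12 SE, edgeR adjusted p = 0.000101, summed 0.00819). Of 34 tRNA synthetase genes tested, Lars2 alone passed, where 5.67% of all genes tested did. The other 33 ranged from -0.23 to 0.34 on the log2 scale. Lars1, its cytosolic counterpart, changed by 0.04 (adjusted p = 0.785). The synthetase set was chosen after the values were seen, with Lars2 already known to pass, so its call there adds nothing.

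ND females showed the same order for both genes, on a scale normalized over 39 libraries. Rn18s-rs5 was between 3680 and 6980 CPM in 4 ND libraries of 530 d and between 16900 and 32700 CPM in 5 of 640 d. Lars2 was between 314 and 390 CPM and between 660 and 918 CPM in these. The diet by age term passed for neither gene (edgeR adjusted p = 0.535 for Rn18s-rs5 and 0.0631 for Lars2). In WD males Lars2 ranged from 618 to 1130 CPM at 530 d and from 539 to 1360 CPM at 750 d, so the ages overlapped. On the same scale both genes had their highest value in ND males of 750 d, 2540 CPM for Lars2 and 76800 CPM for Rn18s-rs5. Mir6236, looked at beside these 2 genes, was at 1.46 to 2.75 CPM at 530 d and at 4.19 to 8.58 CPM at 640 d in WD females. In ND females it was at 1.71 to 3.69 CPM and at 3.47 to 8.01 CPM, so the ages overlapped. The part of ribosomal RNA carry-over in the Lars2 result was not tested.

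Acta1, Nppb and Ankrd1 rose among the fetal and stress genes. Of 6 tested, 3 rose and none fell, with a median log2 fold change of 1.27 (2.89% of all genes tested rose). Acta1 stood at 61.4, 33.8, 28.1, 52.4 and 19.3 CPM at 530 d and at 1180, 470, 468, 39 and 462 CPM at 640 d. F31 and the 3 near-identical libraries were far above 530 d, and F34 lay within it. The fold was 13.4 (log2 3.75 ± 0.65 SE, edgeR adjusted p = 0.0149, summed 0.187). The 8 other skeletal muscle markers summed to 5.12 to 7.64 CPM at 530 d and 5.13 to 7.08 CPM at 640 d, so these overlapped between the ages.

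Nppb was at 73.1, 21.4, 16.9, 39.1 and 110 CPM at 530 d and at 273, 338, 363, 29.2 and 362 CPM at 640 d. The log2 fold change was 2.39 ± 0.62 SE (edgeR adjusted p = 0.0437, summed 0.282). Ankrd1, a stretch-responsive protein of the sarcomere and nucleus, was at 184, 254, 110, 185 and 251 CPM and then at 1530, 623, 628, 148 and 634 CPM (log2 1.86 ± 0.45 SE, adjusted p = 0.0353, summed 0.242). For all 3 genes F34 lay among the 530 d values. Leaving out the libraries with atrial transcripts removes F34, so the log2 fold changes of 3.86 for Acta1, 2.90 for Nppb and 2.54 for Ankrd1 in that fit are given with no test.

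Gdf15, a secreted stress cytokine of the TGF-β family, was highest in F31 and lowest of the 640 d libraries in F34, as Acta1 and Ankrd1 were. It was at 1.61, 2.7, 1.71, 1.63 and 2.60 CPM at 530 d and at 19.3, 6.81, 7.67, 2.75 and 7.55 CPM at 640 d (log2 2.13 ± 0.42 SE, edgeR adjusted p = 0.0211, summed 0.192). The ages did not overlap, although F34 exceeded the highest 530 d value by little. Gdf15 did not pass without the libraries with atrial transcripts, where its log2 fold change was 2.66 (adjusted p = 0.0561). Myh7 and Xirp2, further genes of the programme, had log2 fold changes of 0.69 and 0.58 without passing (adjusted p = 0.383 and 0.0982), and Myh7 was at -0.28 without F31. Nppa, the atrial peptide gene, was under the count filter, with 200 CPM in F15, 15.3 CPM in F12, 12.6 CPM in F31 and 3.60 CPM or less in the other 7.

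The promoters of the 3 stress genes are shown because TEAD factors are known to bind the M-CAT motif in this programme. They come from RefSeq on GRCm38.p6, as the 250 bases before the start site, read 5′ to 3′ on the gene's strand. Capitals mark CATTCC or its reverse complement GGAATG. The Acta1 window is chr8:123894776-123895025 (minus strand), the Nppb window chr4:147985650-147985899 (plus strand) and the Ankrd1 window chr19:36119845-36120094 (minus strand).
Acta1: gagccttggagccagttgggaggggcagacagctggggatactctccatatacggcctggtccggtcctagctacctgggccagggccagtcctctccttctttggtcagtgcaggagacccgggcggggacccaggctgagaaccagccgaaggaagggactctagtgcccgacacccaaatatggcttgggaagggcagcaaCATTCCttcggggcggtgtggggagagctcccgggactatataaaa
Nppb: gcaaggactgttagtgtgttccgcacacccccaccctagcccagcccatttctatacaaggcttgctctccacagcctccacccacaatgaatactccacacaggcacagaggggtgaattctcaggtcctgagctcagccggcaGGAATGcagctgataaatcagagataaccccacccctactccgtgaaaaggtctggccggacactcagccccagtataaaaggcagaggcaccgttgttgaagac
Ankrd1: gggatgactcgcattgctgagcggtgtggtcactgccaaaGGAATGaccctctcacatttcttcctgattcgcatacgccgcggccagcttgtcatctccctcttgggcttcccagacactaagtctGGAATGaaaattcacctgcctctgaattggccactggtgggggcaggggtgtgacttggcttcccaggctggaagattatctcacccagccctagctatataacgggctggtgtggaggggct
The motif starts 46 bases before the start site in Acta1, 105 in Nppb, and 210 and 123 in Ankrd1. It is in 12.6% of all 32851 promoters of this length, in 10.8% of those of genes tested, and in 4 of the 5 listed stress genes with an entry. Of the promoters matched by symbol, 12.7% held it among genes that rose (260 of 347 matched) and 11.6% among genes that fell (250 of 333 matched). A match is a description of the letters and not a bound site.

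**Figure D4:**
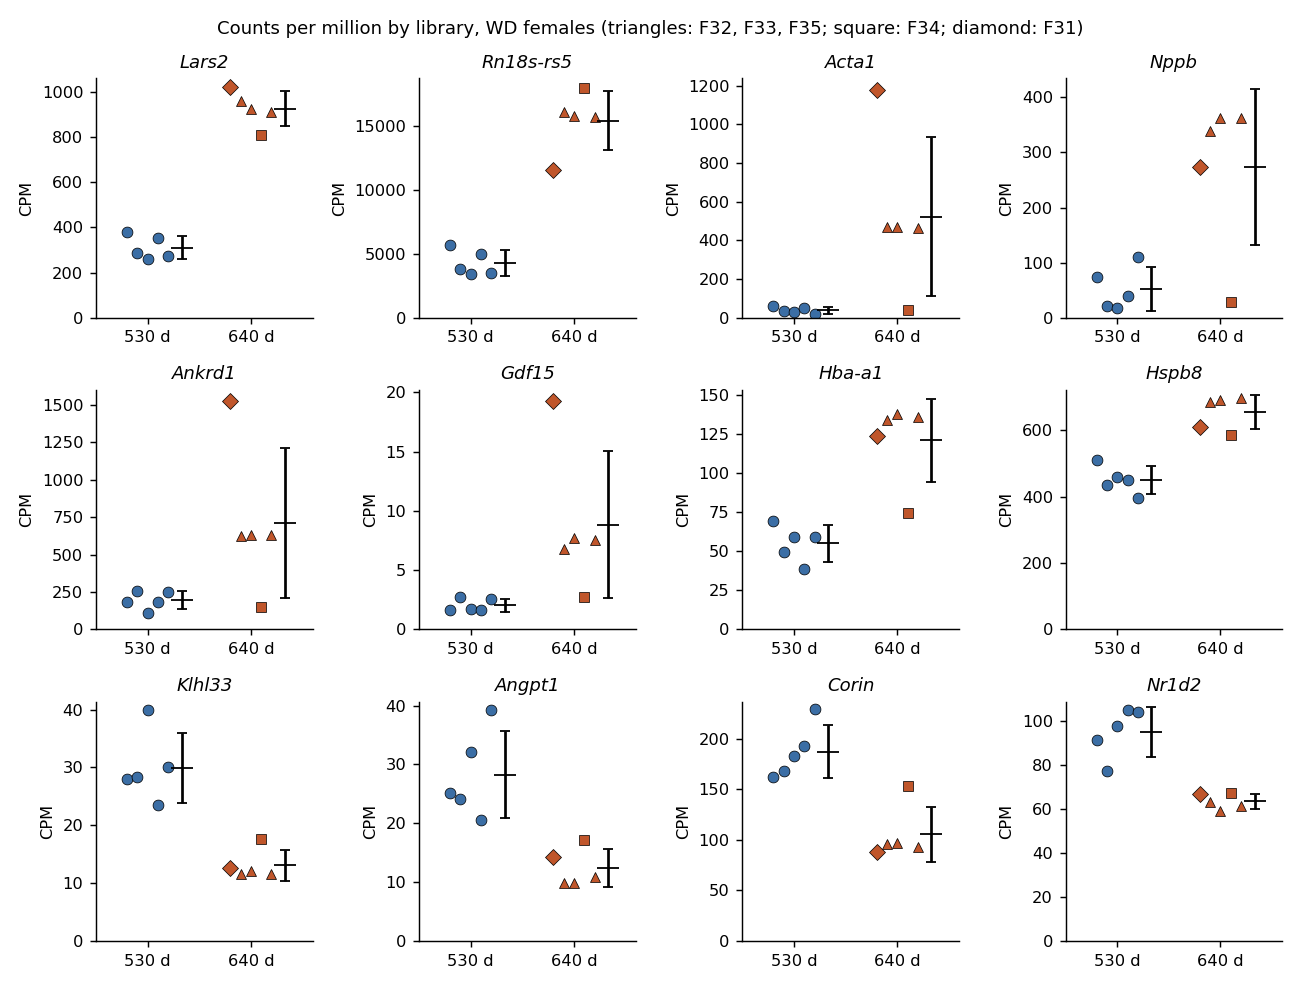
CPM in each library for 12 genes at 530 d (blue) and 640 d (orange), with the mean and SD beside the points (triangles F32, F33 and F35, square F34, diamond F31). Lars2 and Rn18s-rs5 separate the ages in all libraries, while F34 lies among the 530 d values for Acta1, Nppb and Ankrd1.

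Haemoglobin transcripts rose together. All 4 of the red blood cell genes tested rose, with a median log2 fold change of 1.16 (2.89% of all genes tested rose). Hba-a2 did not pass without the libraries with atrial transcripts (adjusted p = 0.106), and Hba-a1 and Hbb-bs did. For Hbb-bt no test is given there. That fit removes F34, which at 7.76 CPM lay inside the 530 d range of Hbb-bt (4.61 to 9.4 CPM). Hba-a1, an α-globin gene, was at 69.2, 49.4, 59.1, 38.5 and 59.3 CPM at 530 d and at 124, 134, 138, 74.5 and 136 CPM at 640 d (log2 1.14 ± 0.18 SE, edgeR adjusted p = 0.0126, summed 0.192). F34 was again the 640 d library closest to 530 d, without overlap. Hbb-bs, a β-globin gene, rose by 1.17 ± 0.20 SE (adjusted p = 0.0145, summed 0.202). The globin genes are near-identical copies, so counts may be shared among them. The summed level of the 7 red blood cell markers was 104 to 186 CPM at 530 d and 186 to 388 CPM at 640 d. In ND females, whose RIN differed between the ages, Hba-a1 rose by 1.55 and Hbb-bs by 1.41 (edgeR adjusted p = 0.0121 and 0.0202). Hba-a2 did not pass there (1.01, adjusted p = 0.0796), and none of the 4 genes passed the diet by age term. In WD males Hba-a1 changed by 0.02 (adjusted p = 0.99). More blood left in the tissue and more globin RNA per cell cannot be told apart in bulk tissue.

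Some chaperone genes rose. Of 19 chaperone genes tested, 6 rose and none fell (2.89% of all genes tested rose), while the median of the list was 0.12. The 6 were Hspb8, Hspb1, Hspb6, Hspb7, Cryab and Bag3, 5 small heat shock proteins and the co-chaperone BAG3, and this grouping was made after their values were seen. Hspb8 was at 509, 434, 460, 450 and 395 CPM at 530 d and at 611, 686, 691, 586 and 696 CPM at 640 d, with no overlap (log2 0.54 ± 0.09 SE, edgeR adjusted p = 0.0145, summed 0.208). Hspb7 was at 1490 to 1760 CPM at 530 d and at 2770 to 3000 CPM in 4 libraries of 640 d, and F34 was at 1560 CPM (log2 0.69 ± 0.15 SE, adjusted p = 0.0301, summed 0.263). Leaving out the libraries with atrial transcripts removes F34, so for Hspb7 the log2 fold change of 0.72 in that fit is given with no test. No other chaperone gene passed there, and none of the 19 passed in the summed fit.

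Some genes of calcium handling and ion flow fell. Of 19 tested, 6 fell and none rose, with a median log2 fold change of -0.20 (2.78% of all genes tested fell). Atp2a2, the calcium pump that refills the sarcoplasmic reticulum, was at 8360, 9980, 10500, 10200 and 10300 CPM at 530 d and at 7540, 6410, 6310, 7740 and 6340 CPM at 640 d. The ages did not overlap, and the log2 fold change was -0.52 ± 0.11 SE (edgeR adjusted p = 0.0245, summed 0.257). Ryr2, the release channel of the same store, was at 885 to 1170 CPM and at 739 to 900 CPM (-0.42 ± 0.10 SE, adjusted p = 0.0307, summed 0.263), where F34 lay inside the 530 d range. Slc8a1, the sodium-calcium exchanger, fell by 0.36, and the potassium channel genes Kcnj2 and Kcnv2 fell by 0.47 and 0.48. Gja5, the connexin of atrium and conduction system, fell by 1.78 (adjusted p = 0.0456, summed 0.293). None of the 19 passed in edgeR without the 4 libraries with atrial transcripts, where 8 of them had an unadjusted p under 0.05. The log2 fold changes there were -0.49 for Atp2a2, -0.38 for Ryr2, -0.51 for Kcnj2, -0.61 for Kcnv2 and -0.20 for Slc8a1. The 4 libraries were left out after the data were seen.

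Kcnj3 and Kcnj5 encode the acetylcholine-gated potassium channel that slows the atrium. Kcnj3 was at 81.6, 89.3, 86.3, 84.0 and 199 CPM at 530 d and at 42.0, 47.3, 46.0, 65.7 and 44.5 CPM at 640 d. It fell by 1.14 ± 0.24 SE (edgeR adjusted p = 0.0261, summed 0.25), and by 0.89 without the libraries with atrial transcripts (adjusted p = 0.00879). Kcnj5 fell by 0.95 (adjusted p = 0.0169, summed 0.221), and by 0.67 without those libraries (adjusted p = 0.0317). Of the 9 atrial markers tested, 2 fell, these, and 1 rose, Hey1 (log2 0.56, adjusted p = 0.0206, and 0.113 without those libraries). Of all genes tested, 2.78% fell and 2.89% rose. Hey1 was also a member of the list of angiogenesis and endothelial signals, so its rise is not tied to atrial cells. Corin, the protease that activates natriuretic peptides, was at 162, 168, 183, 193 and 229 CPM at 530 d and at 88.0, 95.3, 96.6, 153 and 93.3 CPM at 640 d. It fell by 0.83 ± 0.15 SE (adjusted p = 0.0164, summed 0.225), and by 0.88 without the libraries with atrial transcripts (adjusted p = 0.00879). F34, left out in that fit, was the 640 d library nearest to 530 d for Kcnj3, Kcnj5 and Corin. Npr3, the clearance receptor for these peptides, fell by 1.08 (adjusted p = 0.0496, summed 0.313), and had 68.6 CPM in F15 and 14.2 to 40.5 CPM in the other 9 libraries.

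Among receptors of the heart's drive, 3 of 11 thyroid and adrenergic genes fell and none rose (median -0.20, where 2.78% of all genes tested fell). Adra1b, the α1B-adrenergic receptor, was at 50.8, 55.2, 52.2, 49.9 and 55.2 CPM at 530 d and at 31.7, 30.5, 33.9, 42.4 and 31.5 CPM at 640 d, with no overlap. The fall was 0.63 ± 0.09 SE on the log2 scale (edgeR adjusted p = 0.0094, summed 0.187), and 0.68 without the libraries with atrial transcripts (adjusted p = 0.0132). Pde3a, which breaks down cyclic AMP, fell by 0.62 (adjusted p = 0.0307, summed 0.263). Thrb, a thyroid hormone receptor, fell by 0.46 (adjusted p = 0.0307, summed 0.25). Leaving out the libraries with atrial transcripts removes F34, which lay inside the 530 d range of Pde3a (84.8 CPM against 82.0 to 101 CPM). The log2 fold change of -0.81 for Pde3a in that fit is therefore given with no test. Thrb did not pass there (-0.53, adjusted p = 0.0906).

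A minority of fuel genes passed. Of 23 genes of fatty acid uptake and oxidation, 3 fell and none rose, and 20 of the 23 estimates lay below 0 (median -0.17). Of all genes tested, 2.78% fell. Acadvl, which opens the mitochondrial oxidation of long chains, was at 351, 448, 470, 496 and 412 CPM at 530 d and at 316, 264, 263, 310 and 268 CPM at 640 d. The ages did not overlap (-0.61 ± 0.11 SE, edgeR adjusted p = 0.0148, summed 0.22). Slc27a1, a fatty acid transporter, fell by 0.63 and Cpt1a, which passes fatty acids into mitochondria, by 0.61 (adjusted p = 0.0255 and 0.0497). Of 16 PPAR target genes, 3 fell: Cpt1a, Ucp3 (-1.06) and Acot1. Acot1, a cytosolic acyl-CoA thioesterase, was at 46.9, 28.2, 30.7, 28.7 and 26.6 CPM at 530 d and at 10.4, 12.9, 15.6, 25.9 and 16.1 CPM at 640 d (-0.99 ± 0.22 SE, adjusted p = 0.03, summed 0.25). Pdk4, a classical PPAR target, was at -0.82 without passing (adjusted p = 0.146). Without the libraries with atrial transcripts, none of the 23 fatty acid genes passed in edgeR (10 had an unadjusted p under 0.05), and Acot1 alone of the 16 PPAR targets did.

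Of 19 glycolysis genes, 3 rose and none fell (median 0.22, 16 of 19 above 0), where 2.89% of all genes tested rose. Pgam2, the muscle phosphoglycerate mutase, was at 399 to 500 CPM at 530 d and at 573 to 826 CPM at 640 d (0.65 ± 0.12 SE, edgeR adjusted p = 0.0159, summed 0.22). Gapdh rose by 0.54 and Pfkl by 0.30 (adjusted p = 0.03 and 0.0499). Gapdh was at 3580 CPM in F31, inside the 530 d range of 3230 to 3710 CPM, and at 5230 to 5430 CPM in the other 4. Pdha1, which links glycolysis to the TCA cycle, fell by 0.68 (adjusted p = 0.0322, summed 0.273), the sole call among 15 TCA cycle genes. None of the 19 glycolysis genes and 15 TCA cycle genes passed in edgeR without the libraries with atrial transcripts, where 7 of the glycolysis genes had an unadjusted p under 0.05.

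The respiratory chain and translation lists held few calls, where 2.89% of all genes tested rose and 2.78% fell. Of 37 complex I genes 1 fell, Ndufs1 (-0.46, edgeR adjusted p = 0.0197, summed 0.239), while 32 of the 37 estimates were above 0. None of the tested genes of complexes II and III (14), IV (13) and V (15), nor of the 13 mitochondrially encoded genes, passed in edgeR, and of these 2, 1, 0 and 1 had an unadjusted p under 0.05 and DESeq2 called 1, 0, 0 and 0. Among 79 cytosolic ribosomal protein genes none passed in edgeR or DESeq2 and none had an unadjusted p under 0.05, with a median of 0.20. The mitochondrial ribosome gave 2 rises among 28 genes (Mrps18a by 0.63 and Mrps34 by 0.38, adjusted p = 0.0334 and 0.049), with all 28 estimates above 0. Ndufs1, Mrps18a and Mrps34 did not pass without the libraries with atrial transcripts (adjusted p = 0.081, 0.364 and 0.365). mt-Co1, the most counted gene at both ages, stood at 82200 to 96600 CPM at 530 d, at 64700 CPM in F31 and at 107000 to 111000 CPM in the other 640 d libraries.

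**Figure D5:**
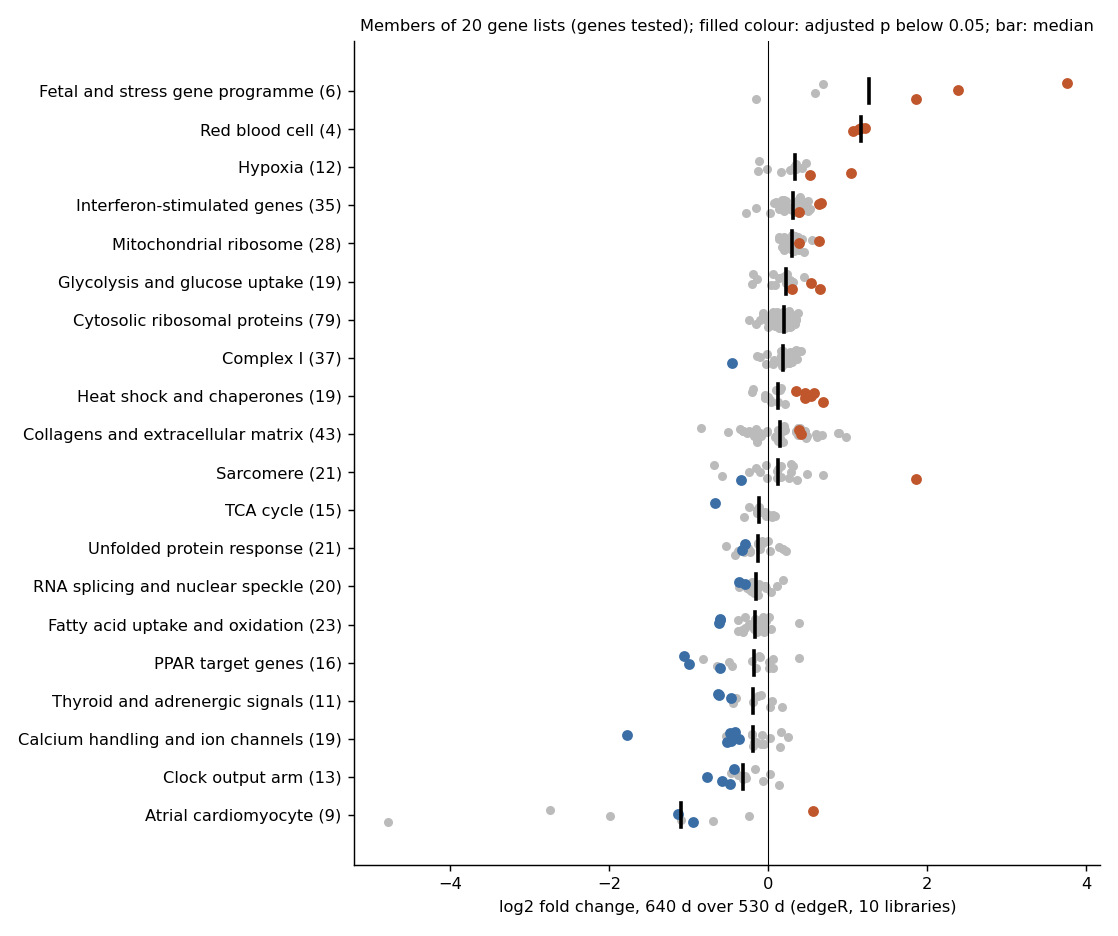
Log2 fold change at 640 d over 530 d for each tested member of 20 gene lists, with the number of genes tested in brackets. Coloured points have an edgeR adjusted p below 0.05 with 10 libraries (orange higher, blue lower), and bars mark the list medians, which run from -1.10 for atrial markers to 1.27 for the stress genes.

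Genes of the clock passed in both of its arms. Of 13 genes of the output arm, 4 fell and none rose (median -0.32), where 2.78% of all genes tested fell. Nr1d2, which encodes the repressor REV-ERBβ, was at 91.1, 77.3, 97.8, 105 and 104 CPM at 530 d and at 66.8, 63.1, 59.2, 67.0 and 61.1 CPM at 640 d. The ages did not overlap (-0.58 ± 0.09 SE, edgeR adjusted p = 0.00959, summed 0.189), and the fall was 0.59 without the libraries with atrial transcripts (adjusted p = 0.0256). Dbp, a transcription factor driven directly by the clock, was at 78.6, 72.8, 73.7, 66.0 and 81.5 CPM and then at 63.0, 46.4, 46.2, 59.1 and 51.5 CPM (-0.48 ± 0.10 SE, adjusted p = 0.0242, summed 0.244). Hlf fell by 0.78 and Cry2 by 0.44 (adjusted p = 0.0307 and 0.0459). Without the libraries with atrial transcripts Dbp, Hlf and Cry2 did not pass (adjusted p = 0.106, 0.338 and 0.234).

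Of 6 genes of the opposite arm, 2 rose (2.89% of all genes tested did). Nfil3, a repressor of the genes that DBP activates, was at 6.89 to 11.4 CPM at 530 d and at 12 to 17.2 CPM at 640 d (0.60 ± 0.14 SE, edgeR adjusted p = 0.0339, summed 0.27). Bmal1, the core activator, rose by 0.51 (adjusted p = 0.0455, summed 0.293). Neither passed without the libraries with atrial transcripts (adjusted p = 0.26 and 0.23). Per2 was at -0.29 (adjusted p = 0.595), with 36.2 CPM in F15 and 25 CPM in F31 against 11 to 16.4 CPM elsewhere. The hour of collection is not given in the labels, so time of day and age cannot be told apart here.

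Some interferon-stimulated genes rose. Of 35 tested, 3 rose and none fell (2.89% of all genes tested rose). Of the 35 estimates 33 were above 0 (median 0.31), and the list was not tested as a set. Ifit3, an antiviral effector, was at 17.9, 19.7, 15.1, 12.8 and 11.6 CPM at 530 d and at 24.4, 20.6, 21.1, 32.1 and 21.6 CPM at 640 d, with F34 the highest (0.64 ± 0.16 SE, edgeR adjusted p = 0.0398, summed 0.223). Isg15, a ubiquitin-like modifier, rose by 0.66 and Ifit2 by 0.38 (adjusted p = 0.0449 and 0.047). None of the 35 was called in edgeR without the libraries with atrial transcripts, where 6 had an unadjusted p under 0.05.

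Such genes are known to be switched on through the interferon-stimulated response element, so the promoters of the pair with the largest rises are printed, again as 250 bases from RefSeq on GRCm38.p6. Capitals mark GAAA, any 2 bases and GAAA, or on the other strand TTTC, any 2 bases and TTTC. The Ifit3 window is chr19:34583279-34583528 (plus strand) and the Isg15 window chr4:156200819-156201068 (minus strand).
Ifit3: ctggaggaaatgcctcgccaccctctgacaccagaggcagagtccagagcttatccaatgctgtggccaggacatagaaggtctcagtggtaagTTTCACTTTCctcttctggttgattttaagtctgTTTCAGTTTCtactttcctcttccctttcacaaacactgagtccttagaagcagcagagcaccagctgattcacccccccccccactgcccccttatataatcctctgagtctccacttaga
Isg15: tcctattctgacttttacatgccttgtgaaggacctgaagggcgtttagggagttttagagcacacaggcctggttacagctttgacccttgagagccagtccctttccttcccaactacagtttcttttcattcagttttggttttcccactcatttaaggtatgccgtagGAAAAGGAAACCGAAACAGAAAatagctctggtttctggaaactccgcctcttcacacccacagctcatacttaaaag
The matches in Isg15 overlap. The motif is in 2.98% of all promoters of this length, in 2.52% of those of genes tested, in 14 of the 24 listed interferon-stimulated genes with an entry, in 0.769% of the matched genes that rose and in 1.6% of those that fell. Ifit2 has no match in its 2 entries, which says only that these letters are not in the windows.

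Among vessel genes, 10 of 12 endothelial markers had an estimate above 0 (median 0.30). DESeq2 called 6 of them, and 1411 of all 11989 genes tested. In edgeR 2 of the 12 rose, where 2.89% of all genes tested did. They were Cldn5 (0.42, edgeR adjusted p = 0.0334, summed 0.25) and Esam (0.39, adjusted p = 0.0281, summed 0.25), both of cell junctions. Neither passed without the libraries with atrial transcripts (adjusted p = 0.388 and 0.177). Endocardial markers went the other way. Of 6 tested 1 fell, Npr3, and 5 estimates were below 0 (median -0.87), where 2.78% of all genes tested fell. Their sum was highest in F15 (679 CPM), and none passed without the libraries with atrial transcripts. Angpt1, the ligand that steadies vessels through the TEK receptor, was at 25.2, 24.2, 32.2, 20.5 and 39.2 CPM at 530 d and at 14.3, 9.86, 9.89, 17.1 and 10.8 CPM at 640 d. It fell by 1.18 ± 0.20 SE without overlap (adjusted p = 0.0145, summed 0.195), and by 1.34 without the libraries with atrial transcripts (adjusted p = 0.0148). Of 43 matrix genes, Loxl1 (0.38) and Tgfb1 (0.41) rose, with a list median of 0.15, where 2.89% of all genes tested rose. None of the 43 passed in edgeR without the libraries with atrial transcripts, where 7 had an unadjusted p under 0.05, and DESeq2 called 3 with all 10 libraries. Col1a1 and Col3a1, the main fibrillar collagens, had estimates of 0.68 and 0.47 with adjusted p of 0.298 and 0.443, and F31 alone was high, with 367 and 623 CPM. Without F31 the estimates were -0.08 and -0.22.

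Among cell cycle arrest genes, calls went both ways. Cdkn1a, which encodes the inhibitor p21, was at 25.2, 23.6, 24.4, 23.5 and 36.2 CPM at 530 d and at 37.1, 47.7, 47.5, 32.2 and 48.7 CPM at 640 d (0.68 ± 0.15 SE, edgeR adjusted p = 0.027, summed 0.25). Cdkn1b, which encodes p27, was at 30.5 to 39.3 CPM and at 19.6 to 27.8 CPM, without overlap (-0.57 ± 0.10 SE, adjusted p = 0.0147, summed 0.192). Leaving out the libraries with atrial transcripts removes F15 and F34, by which the ages overlapped for Cdkn1a. Its log2 fold change of 0.87 in that fit is therefore given with no test. Cdkn1b did not pass there (-0.46, adjusted p = 0.178). Of 13 senescence genes tested, Gdf15 and Cdkn1a rose while Cdkn1b and Igfbp3 fell. Of all genes tested, 2.89% rose and 2.78% fell. Gdf15 and Igfbp3 did not pass without the libraries with atrial transcripts either (adjusted p = 0.0643 for Igfbp3). Cdkn2a, the classical senescence marker, was at or below 1.76 CPM in every library and under the count filter.

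In the remaining lists, Srxn1 (0.51, edgeR adjusted p = 0.00959, summed 0.187) and Gsta4 (0.41) rose among 16 antioxidant genes. Of all genes tested, 2.89% rose and 2.78% fell. Ankrd37 (1.04, adjusted p = 0.0164, summed 0.202) and Egln3 (0.52) rose among 12 hypoxia-responsive genes. Hspa5 and Dnajc3, chaperones of the endoplasmic reticulum, fell by 0.33 and 0.29 among 21 genes of the unfolded protein response. Rbm20, the splicing regulator of titin, and Srsf5 fell by 0.37 and 0.29 among 20 splicing genes. Lcn2, an acute-phase iron carrier, rose by 1.56 (adjusted p = 0.0283, summed 0.202), from 1.56 to 2.30 CPM at 530 d to 2.54 to 11.2 CPM at 640 d. Of the 9 genes named here from Srxn1 to Lcn2, Srxn1 alone passed without the libraries with atrial transcripts (adjusted p = 0.0397). Of the 12 hypoxia-responsive genes 2 passed there, both higher at 640 d and neither of them Ankrd37 or Egln3. No class II MHC, complement, cell cycle, insulin signalling or sirtuin gene passed in edgeR, with 0, 3, 5, 4 and 3 genes at an unadjusted p under 0.05 and 0, 0, 0, 1 and 1 called by DESeq2.

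Gm and Rik gene models aside, 335 genes passed in the 10 libraries, did not overlap between ages and averaged at least 10 CPM. Beyond the lists, genes with the largest changes each way were read from them after their values were seen. Cyp2b10, a cytochrome P450, was at 8.17, 6.45, 2.61, 6.75 and 7 CPM at 530 d and at 23, 25.1, 24.2, 8.38 and 25 CPM at 640 d (1.78 ± 0.31 SE, edgeR adjusted p = 0.0159, summed 0.202). Meox1, a homeobox factor of activated fibroblasts, was at 15.9 to 23.2 CPM and at 24.8 to 45.2 CPM (0.98 ± 0.15 SE, adjusted p = 0.0126, summed 0.187). Bambi, a decoy receptor of TGF-β, rose by 0.82 (adjusted p = 0.0094, summed 0.157). Ighg2c (0.93), Epn3 (0.87), Spon2 (0.84) and Colq (0.80) rose as well, beside Lars2, Rn18s-rs5 and the globins. Ighg2c, Spon2 and Colq did not pass without the libraries with atrial transcripts (adjusted p = 0.129, 0.254 and 0.209).

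The largest fall of these was that of Klhl33, a kelch-domain protein gene. It was at 28, 28.3, 39.9, 23.5 and 30 CPM at 530 d and at 12.6, 11.5, 12, 17.7 and 11.5 CPM at 640 d (-1.19 ± 0.15 SE, edgeR adjusted p = 0.00716, summed 0.157). Without the libraries with atrial transcripts the fall was 1.5 (adjusted p = 0.00825). F34, left out there, was the 640 d library nearest to 530 d for Klhl33. Lgals4, a galectin, was at 113 to 198 CPM and at 78.0 to 99.5 CPM (-0.85 ± 0.15 SE, adjusted p = 0.0149, summed 0.208). Dixdc1, of the Wnt pathway, had the smallest adjusted p among these falls, 0.00644 (summed 0.106), with -0.84 ± 0.10 SE. Sned1 (-1.07), Efemp1 (-0.98) and Lgr6 (-0.85) fell as well, beside Angpt1, Kcnj3, Npr3, Acot1, Kcnj5 and Corin described above. Sned1, Efemp1 and Npr3 did not pass without those libraries (adjusted p = 0.173, 0.178 and 0.106).

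Of the genes the study lists for the diet in females, 19 were tested here between ages, and 6 passed (5.67% of all genes tested did). Cldn5 (0.42), Mif (0.68) and Higd2a (0.48) rose. Mtus2 (-0.53), Klhl24 (-0.30) and Norad (-0.40) fell. Mif, a cytokine, was at 65.0 to 109 CPM at 530 d and at 99.8 to 153 CPM at 640 d (edgeR adjusted p = 0.0245, summed 0.249). Mtus2 was at 178 to 220 CPM and at 118 to 173 CPM (adjusted p = 0.0243, summed 0.25). Mtus2 passed without the libraries with atrial transcripts (adjusted p = 0.0438), while Cldn5, Mif, Higd2a, Klhl24 and Norad did not (0.388, 0.299, 0.377, 0.16 and 0.354). F34, left out in that fit, was the 640 d library nearest to 530 d for Mtus2. The list was chosen by the study on libraries that include these, and the other 13 had estimates between -0.32 and 0.50 without passing.

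The age difference was set against that of ND females by a diet by age term over 19 libraries. It passed for 1580 of 11496 genes (13.7%), 996 with a higher and 584 with a lower age difference on WD. RIN of the ND libraries was 7 ± 0.753 at 530 d (SD, n = 4) and 5.20 ± 0.731 at 640 d (SD, n = 5). With near-identical libraries summed 4 genes passed, and with RIN as a covariate 9. Of the 680 genes above, 660 were tested and 100 passed the term. Col5a3, Kdr, Dll1 and Dennd3 were among the genes with the smallest p. On the scale of 39 libraries, Col5a3, a fibrillar collagen chain, was at 41.2 ± 4.72 CPM at 530 d and 48.7 ± 11 CPM at 640 d on WD (SD, n = 5 each), and at 34.3 ± 9.14 (n = 4) and 10.6 ± 2.72 CPM (n = 5) on ND. The term was 1.94 (edgeR adjusted p = 0.00137). Kdr, the main VEGF receptor, was at 170 ± 22.9 and 231 ± 40.6 CPM on WD and at 176 ± 18.8 and 96.2 ± 8.22 CPM on ND (term 1.32, adjusted p = 0.00137). Dll1, a Notch ligand, was at 7.01 ± 0.63 and 6.82 ± 0.699 CPM on WD and at 7.61 ± 1.15 and 2.95 ± 0.412 CPM on ND (term 1.33, adjusted p = 0.00137). Kdr did not pass the term with near-identical libraries summed. Acta1 had a term of 3.59 (adjusted p = 0.0465), which passed neither with these summed nor with RIN as a covariate. On the scale of 39 libraries, in the ND libraries of 530 d it ranged from 25.8 to 550.0 CPM, and in those of 640 d from 60.9 to 606 CPM.

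In WD males, 750 d against 530 d, 5861 of 11573 genes passed (50.6%), and 3041 with 4 near-identical libraries of 530 d summed. RIN was 6.28 ± 1.47 at 750 d and 5.10 ± 0.725 at 530 d (SD, n = 5 each). Of the 680 genes of the females, 654 were tested in males, and 323 passed there, 49.4% of the 654 and 5.51% of the male calls. They went the same way for 109 genes and the opposite way for 214. With the male libraries summed, 35 went the same way and 128 the opposite way. Acta1 was an example of the second kind, with 175 to 461 CPM at 530 d and 22.8 to 197 CPM at 750 d in males (log2 -1.29, edgeR adjusted p = 0.0252, and 0.0513 with the male libraries summed). Hspb8, Hspb1, Hspb6 and Hspb7, which rose in females, had male log2 fold changes of -1.04, -0.94, -1.42 and -1.33 (adjusted p = 0.000834, 0.000757, 0.000238 and 0.000675, and 0.0249, 0.0178, 0.0133 and 0.01 summed). Adra1b fell in both (-2.17 in males, adjusted p = 3.67e-05, summed 0.00384). Atp2a2 (-0.90, adjusted p = 0.00104) and Acadvl (-1.6, adjusted p = 0.00347) also passed in males, but not with the male libraries summed (0.0945 and 0.117). The older age and the RIN differ between the sexes, so these values stand side by side and no difference between sexes was tested.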

How the data were processed

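The authors made poly-A selected libraries from RV RNA and sequenced them paired-end. Per the labels and methods, reads were checked with FastQC 0.11.9, aligned to mm39 with STAR 2.7.8a and counted with HTSeq-count over the 3′ end of each gene. The deposited values are raw counts per gene, not normalized, in 76 columns. Groups came from the labels and collection ages from the supplementary sample table. One column could not be mapped to a group and was not used.

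Testing used edgeR 4.0.16 under R 4.3.3 (TMM, quasi-likelihood test, Benjamini-Hochberg over all genes tested, threshold 0.05). A gene was tested if each of the 10 libraries held over 20 counts of it. A second fit used F32, F33 and F35 summed. DESeq2 1.42.0 gave the principal components (500 genes) and an alternative test. CPM used TMM factors, with a prior count of 2 for log2 CPM. Diet by age in females and age in WD males used the same test. Scripts were tested on simulated data. Positions came from GENCODE on GRCm39 and promoters from RefSeq on GRCm38.p6. With 5 libraries an age, the smallest exact permutation p is 0.0079.

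Named genes were those past both fits without overlap and with at least 10 CPM, leaving out Gm and Rik gene models. Up to 5 members with the smallest p in each list and members that define it were also named. So were the study's female diet genes, those with the 5 smallest p of the diet by age term, and the most counted gene at each age. The 12 largest rises and falls of the 10-library fit, the tRNA synthetases and Gja5 were added after seeing the data. Members and lists were chosen with earlier results of these data known. Alternatives were other normalizations, tests, filters, RIN as covariate, all 39 libraries in 1 fit, a robust fit, 1 of the 3 near-identical libraries kept, and leaving out each library in turn. Leaving out the libraries with atrial transcripts, and single libraries in the diet by age and male fits, was added later. Counts limit precision to counting error plus the spread between libraries. A few named genes are not reported here.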

Additional observations from a re-analysis of the deposited data

Results flagged for a closer look

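In 244 groups of 5 libraries (single measures at 1 age), 42 had a highest or lowest library whose gap to its neighbour exceeded Dixon's 95% critical value of 0.71 of the range. Chance gives about 1 in 20 groups of independent libraries. That rate does not apply at 640 d, where F32, F33 and F35 are near-identical, so that the gap to F31 or F34 takes most of the range by construction. Of the 42, 8 were at 530 d and 34 at 640 d, and of the latter 16 were F34 and 18 were F31. F34 stood apart at 640 d, in log2 CPM, for Klhl33 (4.16), Kcnj3 (6.04), Corin (7.26), Cyp2b10 (3.09), Hba-a1 (6.22), Meox1 (4.64), Mtus2 (7.44), Emp3 (4.64), Kdr (7.40), Dennd3 (3.97), Acta1 (5.29), Nppb (4.87), Ndufs1 (8.67), Hspb7 (10.6), Tgfb1 (4.76), Actc1 (13). F31 stood apart at 640 d for Norad (7.61), Tef (7.13), Id1 (5.68), B2m (8.37), Higd2a (5.99), Col5a3 (6.17), mt-Co1 (16), Ucp3 (5.85), Gapdh (11.8), Bag3 (8.22), Gsta4 (6.67), Loxl1 (6.56), Myh7 (9.89), Myh6 (14.3), Col1a1 (8.52), Col3a1 (9.28), Tnnt2 (13.1), Per2 (4.65). At 530 d, in log2 CPM, F15 stood apart for Kcnj3 (7.64), Cdkn1a (5.18), Nfil3 (2.81), F11 stood apart for Acot1 (5.56), Atp2a2 (13), F13 stood apart for Cyp2b10 (1.45), F14 stood apart for Srxn1 (4.65), Arc (1.03).

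For 20 named genes the age difference on WD differed from that on ND by the diet by age term (edgeR, adjusted p from 0.00137 to 0.0465). The term, in log2, was positive for Colq (1.25), Cldn5 (0.85), Col5a3 (1.94), Kdr (1.32), Dll1 (1.33), Dennd3 (1.11), Esam (0.61), Acta1 (3.59), Ifit2 (0.54), Srsf5 (0.70), Myh7 (2.92), Myh6 (0.91), Cpt1b (1.27). It was negative for Tspan4 (-0.80), Ier3 (-0.60), Cbr2 (-0.91), Emp3 (-0.84), Angptl2 (-0.49), Cox5a (-0.57), Dbp (-0.49). RIN of the ND libraries differed between the ages as given above, and with RIN as covariate 5 of the 20 still passed (Cldn5, Col5a3, Kdr, Dll1 and Dennd3). With near-identical libraries summed 3 did (Col5a3, Dll1 and Dennd3), and by DESeq2 all 20. All 20 kept their sign under these settings.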

How the results depend on the processing

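The count of 680 genes called between ages was 2 with F32, F33 and F35 summed and 2 with any 1 of them kept. It was 1411 by DESeq2, 74 with all 39 libraries in 1 fit and 149 without the 4 libraries with atrial transcripts, and ran from 27 to 2215 as single libraries were left out. Without a count filter it was 828, of which 339 were higher and 489 lower. In the summed fit the count of 2 was 189 by DESeq2, 118 without a filter, 3 with edgeR's own filter, 0 with the summed libraries left out (882 genes at an unadjusted p under 0.05), 0 without the libraries with atrial transcripts (784), and from 0 (without F12) to 130 (without F34) as single libraries were left out. The diet by age count of 1580 was 4 with near-identical libraries summed, 9 with RIN as covariate, 2267 by DESeq2 and from 596 to 2913 without single libraries. The count of 5861 in WD males was 3041 with 4 libraries summed. The difference of the first principal component was -9.64 with the 3 libraries summed (exact permutation p = 0.107). The cause of these shifts was not tested.

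Of 92 named genes called with 10 libraries, 2 kept their call with the 3 libraries summed, 92 by DESeq2, 86 with RIN as covariate, 14 with all 39 libraries in 1 fit and 28 without the libraries with atrial transcripts, and none of the 92 changed sign under the settings run. Among the 27 not called, the log2 fold change took the other sign as single libraries were left out for 8 genes. It ran from -0.0215 to 0.139 for Fhl1, from -0.0219 to 0.155 for Cbr2, from -0.0311 to 0.107 for Smyd2, from -0.285 to 0.912 for Myh7, from -0.0815 to 0.822 for Col1a1, from -0.223 to 0.617 for Col3a1, from -0.0517 to 0.0105 for Tnnt2 and from -0.586 to 0.131 for Per2. It was below 0 without F31 for Myh7, Col1a1 and Col3a1. With RIN as covariate it was -0.00386 for Cbr2 and 0.132 for Per2, without the libraries with atrial transcripts -0.092 and 0.166, and with F35 alone kept 0.00453 for Emp3. No paired analysis was possible because the labels give the libraries of the 2 ages no shared replicate numbers. Low counts limit Gdf15 and Lcn2, at a few CPM at 530 d. Near-identical libraries leave 3 distinct columns at 640 d.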
